A study of Mus musculus with 18 samples.

Results

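The unfolded protein response (UPR) is described here through 10 genes of the 33440 measured. They are the sensors Ern1, Eif2ak3 and Atf6, the transcription factor Xbp1, and an ATF4 arm of 6 genes (Atf4, Ddit3, Trib3, Ppp1r15a, Chac1 and Asns). They were listed by name as sensors, transcription factors and ATF4 targets, and each was found in the files and passed the filter on low counts in both experiments. RNA was sequenced from mouse adipocytes to ask which genes lie downstream of IRF3, an interferon regulatory transcription factor, and the strain was C57BL/6 throughout.

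In the first experiment, stromal-vascular fraction (SVF) cells were taken from the inguinal fat (iWAT) of mice labelled IRF-2D (IRF3-2D in the study's methods, which give an age of 4 to 6 weeks), which carry a constitutively active Irf3 allele that Cre switches on, and were differentiated into adipocytes. The cultures received AAV with Cre (FI3OE, 3 libraries) or AAV with GFP (WT, 3 libraries) on day 6, and the study's methods place experiments on day 8. All 6 cultures therefore carried the silent allele, and Cre itself and active IRF3 cannot be told apart. In the second experiment, epididymal fat (eWAT) came from mice that lacked Irf3 in adipocytes (FI3KO, 6 libraries) or were WT (6 libraries), all after 8 weeks of high-fat diet at thermoneutrality by the series' design text. The study's methods give a start at 8 weeks of age and a longer diet, without naming the TRAP mice. Both genotypes carried Ad-NuTRAP, a tagged ribosome made in adipocytes, and the RNA bound to it was pulled down (TRAP). The Cre of the adipocyte strains was Adipoq-Cre in the study's methods. The labels call all libraries biological replicates.

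The libraries held from 21541334 to 40490283 reads. All 14 adipocyte markers averaged at least 1 CPM (the reads of a gene scaled to a common library total) in every group. The SVF cultures also held RNA of other cells. Summed over 15 macrophage markers, they had 2283 to 2437 CPM in WT and 2200 to 2216 CPM in FI3OE, and over 6 fibroblast and preadipocyte markers 7247 to 7470 CPM and 6818 to 6971 CPM. Col1a1 made up most of the fibroblast sum (mean log2 CPM 12.7, against 8.76 for the next, Pdgfra). Which cells made it was not tested. In bulk RNA, fewer cells of a type and less RNA per cell cannot be told apart. Irf3, the targeted gene, averaged 57.5 ± 1.02 CPM in the WT cultures and was higher in FI3OE, at 94.4 ± 5.18 CPM (SD, n = 3 each; log2 fold change 0.73, edgeR adjusted p = 3.30e-07). In TRAP it fell from 20.4 ± 2.06 CPM in WT to 15.5 ± 2.2 CPM in FI3KO (SD, n = 6 each; log2 fold change -0.35, edgeR adjusted p = 0.0198), and the groups overlapped. The reads were summed over the whole gene, so part of an Irf3 transcript that deletion leaves would be counted.

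The TRAP libraries form sets that their labels do not name. Replicates 1 and 2 stood apart from replicates 3 to 6 in both genotypes. The macrophage markers summed to 40.4 to 40.8 CPM in WT replicates 1 and 2 and to 75.9 to 106 CPM in WT replicates 3 to 6, against 36.9 to 48.2 CPM and 16.7 to 19.3 CPM in FI3KO. The fibroblast markers moved the same way, at 509 to 514 and 1003 to 1490 CPM in WT and 422 to 513 and 119 to 251 CPM in FI3KO. In FI3KO, endothelial markers summed to 45.5 to 88.7 CPM in replicates 1 and 2 and to 18.6 to 29.0 CPM in replicates 3 to 6 (22.9 to 44.9 CPM in WT). Epididymal markers summed to 1.27 to 1.35 CPM in FI3KO replicates 1 and 2, and were at 0 in replicates 3 to 6 of both genotypes and at most 0.066 CPM in WT replicates 1 and 2. The TRAP log2 fold changes of the 10 genes are therefore also given within each set. WT TRAP replicates 1 and 2 were the most alike of all pairs within a TRAP group (median chi-square per gene 0.78, against at least 1.34), but they differed beyond sampling noise and were counted as 2 libraries. Pairs within an SVF group had medians of 0.89 to 1.23, so the cultures of a group were also more alike than the other TRAP pairs.

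The endoplasmic reticulum (ER) folds proteins for secretion, and the UPR adjusts its capacity to the load, which in adipocytes includes a large flow of adipokines. IRE1 (encoded by Ern1) cuts Xbp1 mRNA, so that the spliced form encodes an active transcription factor. ATF6 is cleaved in the Golgi, and with XBP1 it drives chaperone and ER-associated degradation genes. PERK (encoded by Eif2ak3) phosphorylates eIF2alpha, which lowers general translation and favours that of Atf4. Several other kinases phosphorylate the same site, so the ATF4 arm also answers to amino acid shortage and double-stranded RNA. The sensors and ATF4 are controlled largely after transcription, and the RNA levels given here do not measure their activity.

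Promoters were searched for letters bound by these factors, in RefSeq windows of 300 bases (250 before and 50 after the gene start, GRCm38.p6), which were given for 9 of the 10 genes. The motifs were the C/EBP-ATF response element TGATGNAA, the XBP1 and ATF6 element TGACGTGG, the ER stress response element (CCAAT and CCACG separated by 9 bases), and the core of the interferon-stimulated response element, to which IRFs bind (2 copies of GAAA separated by 2 bases). Both strands were read, and the motifs were counted separately where they overlap. Matches were found in 4 genes. They are shown for the ATF4-arm genes with a match upstream of the RefSeq start, with the matched letters in capitals.
Asns (chr6:7693210-7693262, minus strand): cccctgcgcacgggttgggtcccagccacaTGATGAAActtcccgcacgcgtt
Chac1 (chr2:119351019-119351086, plus strand): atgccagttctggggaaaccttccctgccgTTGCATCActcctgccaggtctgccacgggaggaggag
Ppp1r15a (chr7:45526449-45526518, minus strand): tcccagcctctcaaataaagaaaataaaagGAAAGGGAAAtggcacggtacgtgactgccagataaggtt

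Asns and Chac1 hold the C/EBP-ATF letters, at positions -23 and -193 from the start, as does Trib3 at position 14 (chr2:152344039-152344046). Positions count from the RefSeq start, which differs from the GENCODE gene ends given below, so that the Asns match lies inside the GENCODE gene and the Trib3 match just before it. Of all 32851 promoters in the table, 3.97% hold these letters. Ppp1r15a holds the interferon element's core, which 3.44% of promoters hold. The XBP1 and ATF6 letters and the ER stress element, held by 0.676% and 0.119% of promoters, were found in none of the 9 windows. These are letter matches and show no binding.

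Atf4 and Xbp1 stood above the 3 sensors in both WT groups. On the TPM scale, which divides by transcript length and so allows genes to be compared, Atf4 (238 ± 15.1) and Xbp1 (234 ± 6.84) were the highest in WT SVF-derived adipocytes (SD, n = 3) and did not differ beyond their spread. Ddit3 (144 ± 5.97), Trib3 (136 ± 2.62) and Asns (134 ± 3.65) followed, again without a difference beyond the spread between neighbours. Atf6 stood at 34.0 ± 1.22 TPM, apart from Ppp1r15a (28.3 ± 1.78), Eif2ak3 (27.1 ± 0.72) and Ern1 (26.3 ± 2.36), which were not separated. Chac1 was the lowest at 15.3 ± 1.05 TPM.

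In WT TRAP RNA the order changed in the ATF4 arm. Xbp1 was the highest at 134 ± 6.76 TPM (SD, n = 6), followed by Atf4 at 80.7 ± 7.59 and Asns at 53.2 ± 14.7 TPM. The Asns mean joins both sets of replicates: Asns was at 66.1 and 76.0 TPM in replicates 1 and 2, beside Atf4 at 69.8 and 74.4 TPM, and at 39.5 to 50.2 TPM in replicates 3 to 6, beside Atf4 at 79.5 to 89.8 TPM. Atf6 was at 28.4 ± 2.33 TPM. Ddit3, at 27.4 ± 10.4 TPM over all 6 libraries, was below Atf6 in replicates 1 and 2 (18.1 and 15.1 TPM) and at 24.2 to 41.9 TPM in replicates 3 to 6. Trib3, 4th of the 10 in culture, averaged 9.37 ± 5.11 TPM here, with 15.3 and 16.5 TPM in replicates 1 and 2 and 5.41 to 6.63 TPM in replicates 3 to 6. Ern1 had the lowest mean over all libraries, at 6.59 ± 0.27 TPM, but in replicates 3 to 6 its range of 6.28 to 6.95 TPM overlapped that of Trib3. The experiments differ in depot, preparation and RNA fraction, and no test was made between them.

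With IRF3 changed, Xbp1 was the highest of the 10 in TPM in both groups. In FI3OE it stood at 203 ± 5.79 TPM (SD, n = 3), above Atf4 at 164 ± 8.88 and Asns at 93.6 ± 8.07 TPM, and Trib3 was 5th at 32.8 ± 6.12 TPM. Atf6, Ppp1r15a and Ern1, at 19.1 to 21.5 TPM, were not separated from their neighbours among these 3. In FI3KO TRAP RNA, Xbp1 was at 170 ± 18.2 TPM (SD, n = 6), and Asns at 105 ± 15.6 TPM stood above Atf4 at 79.7 ± 9.34 TPM. This was the reverse of their order in WT replicates 3 to 6 but not in WT replicate 2. In FI3KO replicates 1, 2 and 4 this order rested on shorter Asns transcripts. The most read one, Asns-201, was at 45.0, 59.8 and 78.6 TPM there, below Atf4 at 84.5, 75.7 and 95.3 TPM. Eif2ak3, Ddit3, Trib3, Ppp1r15a and Chac1, at 10.0 to 15.4 TPM, were not separated from their neighbours among these 5, and Ern1 was again the lowest at 6.81 ± 0.58 TPM.

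**Figure D1:**
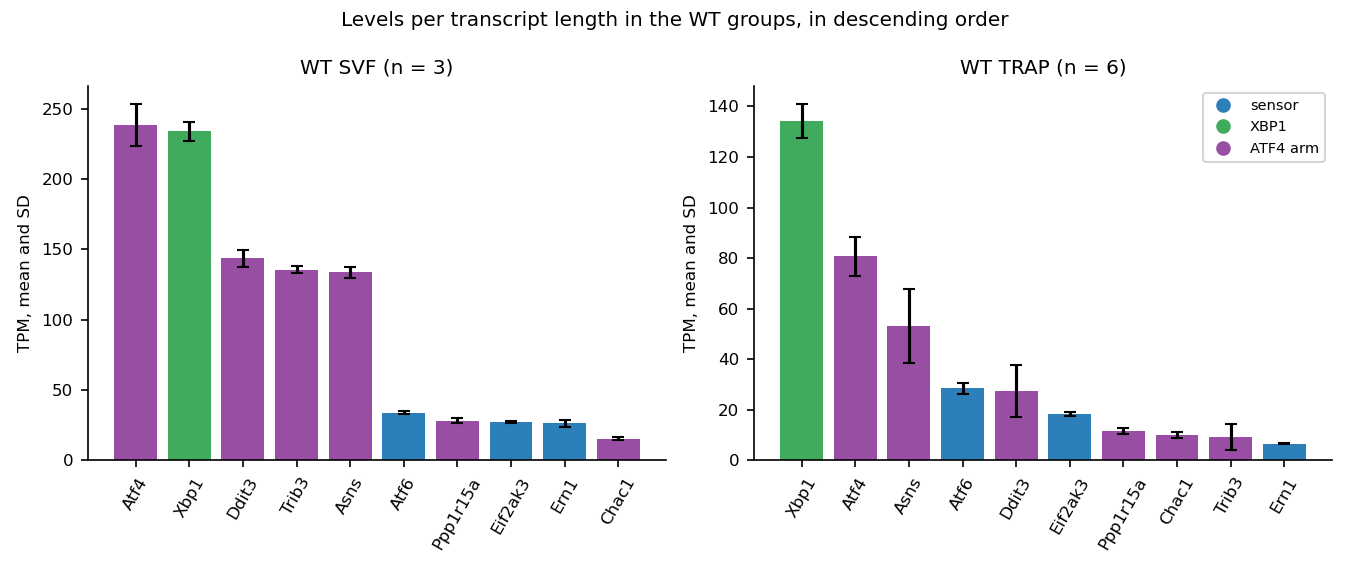
Mean TPM (vertical axis, bars with SD) of the 10 genes in WT SVF-derived adipocytes (n = 3) and WT TRAP RNA (n = 6), in descending order and coloured by role; the 2 panels have their own vertical scales. Xbp1 and Atf4 are the highest in both groups, at 234 and 238 TPM in culture and 134 and 80.7 TPM in TRAP RNA, and Trib3 falls from 136 TPM to 9.37 TPM.

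Active IRF3 in SVF-derived adipocytes went with lower RNA of all 10 genes. Each was lower in all 3 FI3OE libraries than in any WT library, and each was called lower at an adjusted p of 0.05 or less (edgeR, quasi-likelihood test, with p-values adjusted by the Benjamini-Hochberg method over 16105 genes; SE below is that of the fitted log2 fold change). Of all genes tested, 37% were called, 16.8% lower and 20.2% higher. Groups did not overlap for 49.8% of genes, and 25.7% had FI3OE libraries wholly below WT. The decreases ran from 1.10-fold for Xbp1 to 3.87-fold for Trib3. Trib3 was the only one of the 10 whose log2 fold change also had a size of 1 or more, a cutoff that 3.62% of genes passed (1.63% downward and 1.99% upward).

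Among the sensors, Eif2ak3 and Atf6 decreased by similar amounts and Ern1 by less. Eif2ak3 (chr6:70844515-70905245, plus strand, GRCm38 as for all genes below) was at 41.6, 44.5 and 43.6 CPM in WT and at 27.8, 26.4 and 28.2 CPM in FI3OE. Its log2 fold change was -0.64 (SE 0.050, edgeR adjusted p = 1.82e-06). Atf6 (chr1:170704674-170867771, minus strand) was at 148, 142 and 139 CPM in WT and at 94.2, 89.0 and 96.4 CPM in FI3OE. All FI3OE libraries of both genes lay well below the lowest WT library. The log2 fold change of Atf6 was -0.60 (SE 0.040, edgeR adjusted p = 5.50e-07). Ern1 (chr11:106394650-106487852, minus strand) was at 66.2, 66.3 and 61.1 CPM in WT and at 52.4, 51.6 and 48.5 CPM in FI3OE, so that its groups were closer. Its log2 fold change was -0.33 (SE 0.047, edgeR adjusted p = 0.000204).

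Xbp1 (chr11:5520659-5525893, plus strand) changed least of the 10. It was at 187, 180 and 183 CPM in WT and at 159, 171 and 165 CPM in FI3OE. The highest FI3OE library lay just under the lowest WT library. The log2 fold change was -0.13 (SE 0.040, edgeR adjusted p = 0.0222). The adjusted p was above 0.05 when FI3OE replicate 1 (0.0907) or 3 (0.0572) or WT replicate 1 (0.0623) or 3 (0.0625) was left out, with an offset for transcript length (0.058) and in a fit of all 18 libraries (0.559). The share of spliced Xbp1 was not analysed here, since none of its 4 transcripts in the annotation lacks the stretch that IRE1 removes.

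The ATF4 arm held the largest decreases. Trib3 (chr2:152337422-152344032, minus strand), a pseudokinase that ATF4 and CHOP induce, was at 99.1, 95.1 and 95.8 CPM in WT and at 23.2, 21.3 and 29.0 CPM in FI3OE. Every FI3OE library lay far below every WT library. It had a log2 fold change of -1.95 (SE 0.085, edgeR adjusted p = 1.56e-08). Ddit3 (chr10:127290774-127296288, plus strand), which encodes CHOP, was at 52.1, 47.4 and 49.9 CPM in WT and at 26.2, 23.1 and 27.9 CPM in FI3OE. Its log2 fold change was -0.93 (SE 0.065, edgeR adjusted p = 6.94e-07). Chac1 (chr2:119351229-119354381, plus strand), a glutathione-degrading enzyme, fell about as much from a lower level, from 10.1, 11.7 and 10.7 CPM to 5.66, 5.06 and 5.88 CPM. Its log2 fold change was -0.94 (SE 0.104, edgeR adjusted p = 2.81e-05).

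The other genes of the arm fell by less. Atf4 itself (chr15:80255184-80257541, plus strand) was at 139, 133 and 138 CPM in WT and at 99.1, 98.2 and 107 CPM in FI3OE, a log2 fold change of -0.41 (SE 0.043, edgeR adjusted p = 2.06e-05). Asns (chr6:7675169-7693254, minus strand), the asparagine synthetase, was at 109, 121 and 117 CPM in WT and at 84.1, 81.0 and 87.4 CPM in FI3OE, a log2 fold change of -0.44 (SE 0.047, edgeR adjusted p = 2.27e-05). Ppp1r15a (chr7:45522916-45526268, minus strand), which encodes the GADD34 subunit that brings a phosphatase to eIF2alpha, was at 26.8, 30.4 and 27.7 CPM in WT and at 20.9, 20.7 and 21.3 CPM in FI3OE. Its log2 fold change was -0.41 (SE 0.060, edgeR adjusted p = 0.000228). In the fit of all 18 libraries, the adjusted p of Asns was 0.334 and that of Ppp1r15a 0.176.

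**Figure D2:**
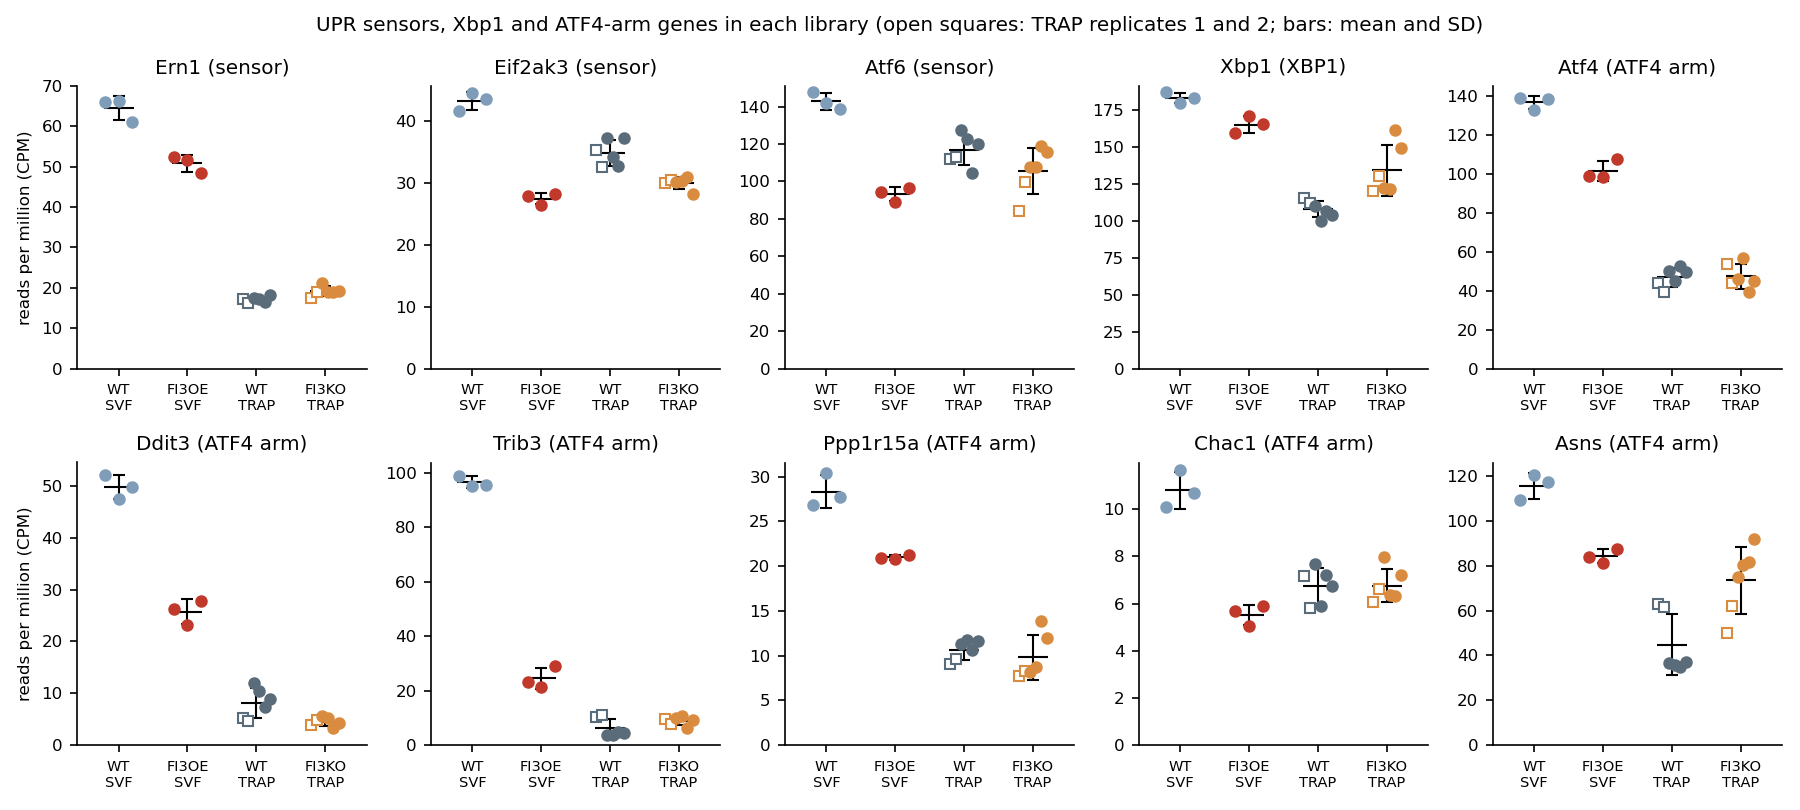
CPM (vertical axes, each from 0) of the 10 genes in every library of the 4 groups, with the mean and SD as bars and TRAP replicates 1 and 2 as open squares. All FI3OE libraries lie below all WT SVF libraries in each panel, while in TRAP RNA Asns and Trib3 split by replicate set in WT.

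The arms were set side by side by their genes and by their targets. Atf6 and Xbp1 had a median log2 fold change of -0.37 and the 6 ATF4-arm genes one of -0.69, beside -0.005 for all genes tested. Among targets the order was the other way round. All 24 ATF6/XBP1 targets were called lower, with a median of -0.78. Of 38 further ATF4 targets, 28 were called lower and 4 higher, with a median of -0.39. Over all genes tested, 16.8% were called lower and 20.2% higher. These lists were described by counts and medians, and the difference between arms was not tested.

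The ATF6/XBP1 targets that fell most were genes of ER folding and degradation. Derl3, of ER-associated degradation, was at 6.84 ± 0.70 CPM in WT and 0.84 ± 0.33 CPM in FI3OE (SD, n = 3 each), with a log2 fold change of -2.95. Hspa5, which encodes the chaperone BiP that holds the sensors inactive, was at 2756 ± 101 CPM in WT and 867 ± 188 CPM in FI3OE, with a log2 fold change of -1.65. Sdf2l1 and Creld2 had log2 fold changes of -2.13 and -1.79. The groups did not overlap for these 4 genes.

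Phgdh, Cbs, Slc6a9 and Fgf21 were the ATF4 targets that fell most. Phgdh, the first enzyme of serine synthesis, fell from 77.9 ± 3.26 to 28.2 ± 1.91 CPM (log2 fold change -1.45), Cbs, of transsulfuration, from 17.4 ± 0.59 to 4.44 ± 0.89 CPM (-1.94), and the glycine transporter Slc6a9 from 35.1 ± 0.38 to 13.8 ± 0.48 CPM (-1.33). Fgf21, a hormone, was low at 0.51 ± 0.09 and 0.22 ± 0.07 CPM (-1.15, SE 0.408, adjusted p = 0.046 in edgeR). At this level its place among the targets that fell most is uncertain. The 4 ATF4 targets that rose, named after their values were seen, were Gdf15 (1.10), Atf3 (0.77), Sesn2 (0.41) and Ddit4 (0.41). Each of these is also known to answer to other stress signals.

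The remaining pathway genes moved in both directions. Of 14 other genes of eIF2alpha phosphorylation, 6 were called higher and 3 lower, with a median log2 fold change of 0.10. Eif2ak2, which encodes the double-stranded RNA kinase PKR and is interferon-induced, rose from 93.7 ± 3.84 to 139 ± 7.64 CPM (log2 fold change 0.58, SD, n = 3 each). Dnajc3, an ER co-chaperone that restrains PERK, fell from 340 ± 13.0 to 148 ± 19.0 CPM (-1.18). Impact, which restrains GCN2, and Eif2b1, a subunit of the exchange factor eIF2B, rose by 0.34 and 0.24 on the log2 scale. Of 14 other UPR signalling genes tested, 2 were called higher and 4 lower. Over all genes tested, 20.2% were called higher and 16.8% lower. Wfs1, an ER membrane protein, fell by 0.70, Tmbim6 by 0.39 and Creb3l2 by 0.27, and Creb3 rose by 0.39.

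**Figure D3:**
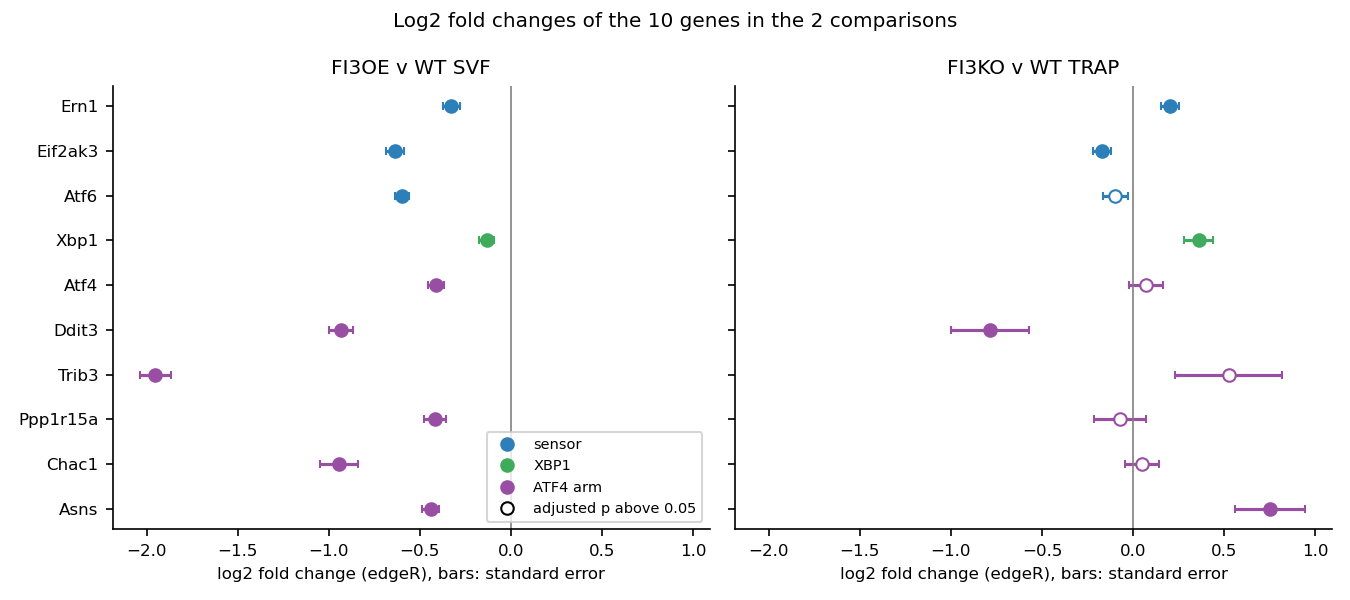
Log2 fold change (horizontal axes, bars show the standard error) of the 10 genes in FI3OE against WT SVF-derived adipocytes and in FI3KO against WT TRAP RNA, coloured by role. Filled points have an adjusted p of 0.05 or less, which holds for all 10 on the left and for 5 on the right.

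Loss of Irf3 in adipocytes gave no common direction. In TRAP RNA, 5 of the 10 genes were called, beside 37.4% of 13624 genes tested (19.1% higher and 18.3% lower), with Asns, Xbp1 and Ern1 higher and Ddit3 and Eif2ak3 lower in FI3KO. None also reached a log2 fold change of size 1, as 6.61% of genes did (1.74% upward and 4.87% downward). Groups did not overlap for Xbp1 and Eif2ak3, as for 15.2% of genes tested (5.39% higher and 9.82% lower in FI3KO). The 2 experiments share no samples, and they differ in tissue and RNA fraction as well as in the direction of the IRF3 change.

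Of the sensors, Eif2ak3 was at 32.5, 34.7 and 37.3 CPM in WT (lowest, median and highest of 6) and at 28.2, 30.2 and 30.9 CPM in FI3KO. It was thus lower in every FI3KO library than in any WT library, with a log2 fold change of -0.17 (SE 0.049, edgeR adjusted p = 0.0157). The adjusted p rose to 0.0622 with no filter on low counts and to 0.0563 with an offset for transcript length. It rose to 0.068 with the replicate number as a block, although these numbers did not pair the libraries. Within replicates 3 to 6 the log2 fold change of Eif2ak3 was -0.20 and within replicates 1 and 2 it was -0.11, and in a fit of replicates 1 and 2 only the call was lost (adjusted p = 0.46). Ern1 was at 16.3, 17.2 and 18.3 CPM in WT and at 17.4, 18.9 and 21.2 CPM in FI3KO, with 5 of 6 FI3KO libraries above all WT libraries. Its log2 fold change was 0.20 (SE 0.051, edgeR adjusted p = 0.00762), and 0.11 with an adjusted p of 0.234 with the length offset. It was 0.22 within replicates 3 to 6 and 0.17 within replicates 1 and 2, and a fit of replicates 1 and 2 only also lost the call (adjusted p = 0.254). Atf6 was at 105, 117 and 127 CPM in WT and at 84.4, 108 and 119 CPM in FI3KO. These groups overlapped, and the log2 fold change of -0.10 (SE 0.071) did not pass the test (adjusted p = 0.298). For Atf6 the sets gave -0.03 in replicates 3 to 6 and -0.24 in replicates 1 and 2.

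Xbp1 was the only one of the 10 higher in every FI3KO library than in any WT library. It was at 99.6, 109 and 115 CPM in WT and at 120, 126 and 162 CPM in FI3KO, with a log2 fold change of 0.36 (SE 0.080, edgeR adjusted p = 0.00411). The call was lost in none of the fits that left out 1 library, which gave an adjusted p of at most 0.016, but it was lost in a fit of replicates 1 and 2 only (adjusted p = 0.123). Within replicates 3 to 6 the log2 fold change was 0.44 and within replicates 1 and 2 it was 0.20, and the difference between these did not pass its test (adjusted p = 0.265 in edgeR).

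In the ATF4 arm, the CPM of Asns and Trib3 differed between genotypes in replicates 3 to 6 and not detectably in replicates 1 and 2. WT replicates 1 and 2 had 62.9 and 61.5 CPM of Asns and WT replicates 3 to 6 between 34.9 and 37.0 CPM. FI3KO replicates 1 and 2 had 50.0 and 61.9 CPM and replicates 3 to 6 between 75.0 and 91.8 CPM. In WT the early-numbered libraries were thus the higher ones and in FI3KO the lower ones. The log2 fold change was 0.75 over all libraries (SE 0.191, edgeR adjusted p = 0.00847), 1.24 within replicates 3 to 6 and -0.10 within replicates 1 and 2. The difference of -1.33 passed the test of an interaction between genotype and set (SE 0.130, edgeR adjusted p = 3.52e-05), as it did for 26.5% of genes. These fits used read counts. In TPM summed over transcripts, Asns was higher in FI3KO in replicates 1 and 2, at 93.7 and 93.6 against 66.1 and 76.0 in WT. Its most read transcript, Asns-201, was lower in FI3KO there, at 45.0 and 59.8 TPM against 66.1 and 63.3. The excess of the sum lay on 2 short transcripts, Asns-206 and Asns-207 (448 and 431 bases). In replicate 1 they held 18.6 and 29.2 TPM in FI3KO and 0 in WT. In replicate 2 they held 15.7 and 18.1 TPM in FI3KO and 4.41 and 8.33 in WT. With an offset for transcript length the log2 fold change of Asns over all libraries was 1.04 (adjusted p = 0.000809 in edgeR). That offset draws on the same transcript TPM.

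Trib3 was at 10.2 and 11.1 CPM in WT replicates 1 and 2, at 3.65 to 4.70 CPM in WT replicates 3 to 6 and at 6.42 to 10.8 CPM over the FI3KO libraries. WT replicates 1 and 2 were thus above all the other WT libraries and the others below all FI3KO libraries. Over all libraries the log2 fold change was 0.52 (SE 0.292) and did not pass the test (adjusted p = 0.175 in edgeR). It was 1.17 within replicates 3 to 6 and -0.27 within replicates 1 and 2, a difference of -1.43 (SE 0.263, adjusted p = 0.00206 for the interaction). Without WT TRAP replicate 2 the log2 fold change was 0.77 and passed the test (adjusted p = 0.0352). Trib3 also passed with the replicate set as a term in the fit (0.68, adjusted p = 0.0357 in edgeR). A fit of replicates 3 to 6 only gave 1.17 (adjusted p = 0.000215 in edgeR).

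Ddit3 had the largest decrease of the 10. It was at 5.31 and 4.61 CPM in WT replicates 1 and 2, at 7.27 to 12.0 CPM in WT replicates 3 to 6 and at 3.31 to 5.59 CPM in FI3KO. WT replicates 1 and 2 lay inside the range of FI3KO and the other WT libraries above it. The log2 fold change was -0.79 (SE 0.215, edgeR adjusted p = 0.0126), -1.04 within replicates 3 to 6 and -0.10 within replicates 1 and 2. The difference of 0.94 passed the test (SE 0.312, adjusted p = 0.0437 for the interaction). Of the 10 genes, only these 3 of the ATF4 arm passed the interaction test. The macrophage and fibroblast markers given above split by the same sets, and their part in these results was not tested.

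Atf4, Ppp1r15a and Chac1 did not pass the test. Atf4 was at 39.3, 47.4 and 52.6 CPM in WT and at 39.5, 45.4 and 56.6 CPM in FI3KO, with a log2 fold change of 0.07 (SE 0.093, edgeR adjusted p = 0.591). Ppp1r15a had a log2 fold change of -0.07 (SE 0.143) and Chac1 one of 0.05 (SE 0.093), with adjusted p-values of 0.716 and 0.703. Ppp1r15a was at 9.09 to 11.8 CPM in WT and at 7.72 to 13.9 CPM in FI3KO, and Chac1 at 5.80 to 7.68 CPM and at 6.06 to 7.96 CPM. The ranges of Atf4 and Chac1 overlapped between the groups, while for Ppp1r15a 4 FI3KO libraries (replicates 1 to 4, at 7.72 to 8.69 CPM) lay below all WT libraries and the other 2 (13.9 and 12.0 CPM) above them. Within replicates 3 to 6 and within replicates 1 and 2 the log2 fold changes were -0.04 and 0.28 for Atf4, -0.03 and -0.17 for Ppp1r15a, and 0.06 and 0.03 for Chac1. The libraries were not made to mark strand, so reads in the overlaps of Ddit3 with Mars (68 bases) and of Ppp1r15a with Tulp2 (717 bases) cannot be given to a gene by strand.

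In TRAP RNA the called genes of the ATF4 arm went both ways, from -0.79 for Ddit3 to 0.75 for Asns. Of Atf6 and Xbp1, only Xbp1 was called, and it was higher. The median log2 fold change was 0.13 for Atf6 and Xbp1 and 0.06 for the ATF4 arm, beside 0.02 for all genes tested. Of 23 ATF6/XBP1 targets tested, 3 were called higher and 6 lower, with a median of -0.01. Of 36 ATF4 targets tested, 4 were called higher and 11 lower, with a median of -0.15 and 26 below 0. Of all 13624 genes tested, 6530 were below 0, and 19.1% were called higher and 18.3% lower. As differences of mean log2(CPM + 0.5), the medians in replicates 3 to 6 and in replicates 1 and 2 were -0.06 and -0.04 for the ATF6/XBP1 targets, -0.25 and -0.12 for the ATF4 targets and -0.03 and -0.04 for all genes tested. The macrophage markers, of which 10 of 12 tested were called lower over all libraries, had a median difference of -2.14 in replicates 3 to 6 and of 0.22 in replicates 1 and 2, so that their direction turned between the sets. The fibroblast markers, of which 2 of 5 tested were called lower over all libraries, likewise had -0.85 and 0.45.

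Named targets moved both ways. Among ATF6/XBP1 targets, Sec24d of COPII vesicles (log2 fold change -0.82) and the co-chaperone Dnajb9 (-0.57) were lower in FI3KO, and Derl1 (0.55) and the disulfide isomerase Pdia4 (0.52) were higher. Among ATF4 targets, the largest decreases were those of the cystine transporter Slc7a11 (-1.40, at or below 1 CPM on average in both groups), Cth of transsulfuration (-1.25, from 18.3 ± 4.52 to 7.39 ± 1.09 CPM, SD, n = 6 each), Aldh18a1 of proline synthesis (-1.16) and the amino acid transporter Slc7a5 (-1.14). The part of the macrophage and fibroblast RNA in these decreases was not tested.

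The eIF2alpha genes had 2 called higher and 6 lower of 14. Ppp1r15b, which encodes the constitutive partner of that phosphatase, rose from 114 ± 7.10 to 162 ± 14 CPM (log2 fold change 0.55, SD, n = 6 each), with no overlap between the groups. Eif2s1, eIF2alpha itself, fell by 0.47, the adaptor Nck1 by 0.48 and the amino acid-sensing kinase Eif2ak4 by 0.31. Of 13 other UPR signalling genes tested, 4 were called higher and 3 lower. Over all genes tested in TRAP RNA, 19.1% were called higher and 18.3% lower. Creb3 fell by 0.66, Creb3l1 by 0.50 and Wfs1 by 0.30, and Mbtps1, the protease that cleaves ATF6, rose by 0.30.

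**Figure D4:**
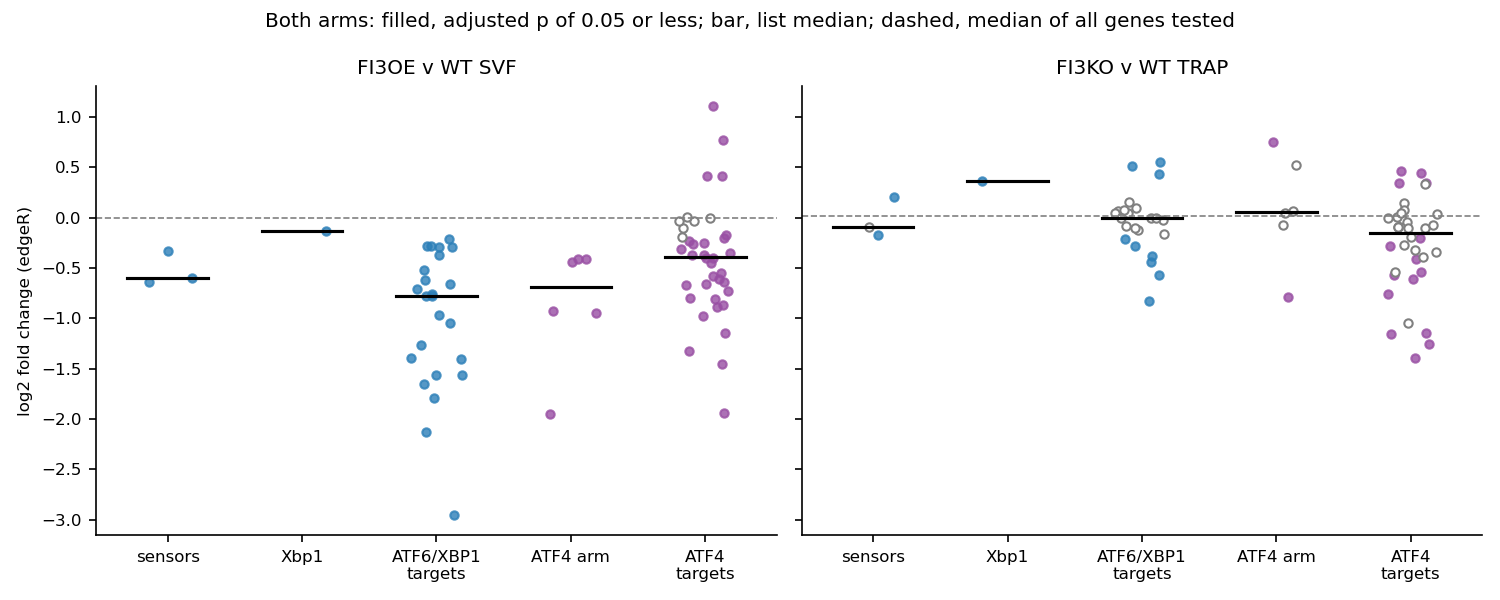
Log2 fold change (vertical axis) of each gene of the sensors, Xbp1, the ATF6/XBP1 targets, the ATF4 arm and the ATF4 targets in the 2 comparisons (filled where the adjusted p is 0.05 or less), with the list median as a bar and the median of all genes tested as a dashed line. All 24 ATF6/XBP1 targets are below 0 in FI3OE, while in FI3KO TRAP RNA the ATF6/XBP1 targets have a median of -0.01 and 26 of 36 ATF4 targets lie below 0. Of all 13624 genes tested in TRAP RNA, 6530 lie below 0.

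The ATF4-arm genes followed their common mean closely in culture and less so in TRAP RNA. The Pearson correlation of each ATF4-arm gene with the mean of the 6 (log2 CPM centred within each experiment and scaled, the gene itself included in the mean) was 0.98 to 1.00 over the 6 SVF libraries, in which the groups differ for every gene. Over the 12 TRAP libraries it was 0.04 for Trib3, 0.11 for Ddit3, 0.24 for Ppp1r15a, 0.32 for Atf4, 0.36 for Asns and 0.60 for Chac1. The genes outside the 10 whose pattern over the 18 libraries was most like that of the ATF4 arm were Bcat2, Amotl1, Hyou1, Impdh1 and Igfbp4 (r of 0.95 to 0.97, of 13093 genes), but over the TRAP libraries alone their r was 0.62, 0.31, 0.22, 0.81 and 0.17. For Atf6 and Xbp1 they were Slc43a1, Irf4, Tmem143, Pold2 and Idh3b (r of 0.92 to 0.94). Atf6 and Xbp1 themselves each had an r of only 0.76 with the mean of the 2 over the 18 libraries. Over the TRAP libraries alone it was 0.44 for Atf6 and 0.85 for Xbp1. These correlations share the group differences and the libraries and are a description.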

How the data were processed

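The authors quantified reads with Salmon 1.4.0 after fastp (submitters' processing notes) on GENCODE M24 transcripts of GRCm38, and deposited per library a table of expected counts (estimated read numbers, not normalized) and TPM for 118733 transcripts. Here the GENCODE M21 annotation gave the gene of 117850 transcripts, and each of the remaining 883 (0.38 to 1.08% of reads) stood as its own gene. Expected counts were summed per gene and rounded. CPM was computed on the library total, and deposited TPM values were summed per gene.

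Each experiment was fitted alone with edgeR 4.0.16 in R 4.3.3 (filterByExpr, TMM, quasi-likelihood test, Benjamini-Hochberg adjustment over all genes tested), called at an adjusted p of 0.05 or less. The test was checked on simulated data. Standard errors are of the fitted log2 fold change. All 10 members, up to 4 called genes of largest change per pathway list, the 5 genes most like each arm and Irf3 were named by rule. Members and lists were chosen with earlier results of these data known. Alternatives were scaling, filter, test (DESeq2 1.42.0), length offset, samples in the fit, replicate block, robust dispersion, removal of mitochondrial-genome and rRNA genes, sets of TRAP replicates and each library left out. Intervals and p-values measure the spread between these libraries.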

Additional observations from a re-analysis of the deposited data

Results flagged for a closer look

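Eif2ak3 in FI3KO TRAP replicate 6 (28.2 CPM) lay far from the other 5 libraries of its group, which were at 29.97 to 30.95 CPM. It was the only such library over 20 groups of 6 tested, and chance alone gives about 1 in 20.

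The FI3KO against WT difference was not the same in TRAP replicates 1 and 2 as in replicates 3 to 6 for 3 genes of the ATF4 arm, in edgeR's test of the interaction. Over all genes tested, 26.5% passed that test, so that 3 of 10 is near the background. The log2 fold change in replicates 1 and 2 minus that in replicates 3 to 6 was -1.33 for Asns, -1.43 for Trib3 and 0.94 for Ddit3. These values come from read counts. In TPM summed over transcripts Asns was higher in FI3KO in replicates 1 and 2, but its most read transcript, Asns-201, was lower there.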

How the results depend on the processing

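Over 15 alternatives for the SVF-derived adipocytes, 142 of 150 log2 fold changes of the 10 genes kept their direction and their side of the threshold and 8 lost the call. Over 25 alternatives for TRAP, 236 of 250 did, 8 lost the call in the same direction, 3 gained it and 3 changed direction, of which Asns also lost its call (adjusted p = 0.57). The direction changed for Atf4 in replicates 3 to 6 only (log2 fold change -0.035), and for Trib3 (-0.26) and Asns (-0.093) in replicates 1 and 2 only. For Asns this holds for read counts and for the TPM of its most read transcript, Asns-201 (45.0 and 59.8 in FI3KO, 66.1 and 63.3 in WT). Its TPM summed over transcripts was higher in FI3KO in replicates 1 and 2, through short transcripts. With the fold-change cutoff the calls in culture went from 5960 to 583 over all genes and from 10 to 1 of the 10, and in TRAP from 5095 to 901 and from 5 to 0. A length offset gave 3800 calls in culture and 3 of the 10 genes in TRAP, and the fit of 18 libraries 1572 calls in culture. Replicates 1 and 2 only, with 2 libraries a group, gave 500 calls and 0 of the 10 in TRAP. Replicates 3 to 6 only gave 6922 calls and 6 of the 10. With the replicate sets as a term in the fit there were 5436 calls and 6 of the 10. Leaving out 1 library gave 4949 to 5197 calls and 9 to 10 of the 10 in culture, and 3937 to 5343 calls and 5 to 6 of the 10 in TRAP. Summing WT TRAP replicates 1 and 2 as 1 library, chosen after seeing the data, gave 5284 calls and 5 of the 10. The causes were not tested. Replicate numbers did not pair the libraries (correlations of same-numbered deviations -0.34 to 0.11), and the replicate block gave 5658 calls and 10 of the 10 in culture, and 3632 and 4 of the 10 in TRAP, where the call of Eif2ak3 was lost (adjusted p = 0.068). At a few CPM, as for Chac1, Trib3 and Ddit3 in TRAP, counting error adds to the spread.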
